A study of Homo sapiens with 6 samples.

Results

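Receptor tyrosine kinases are cell-surface receptors whose intracellular kinase domain is switched on when a growth factor binds outside the cell. The members described here are EGFR, ERBB2, ERBB3, MET, FGFR1, FGFR2, FGFR3, IGF1R, INSR and AXL, which were chosen by name from the 56303 rows of 1 deposited table of read counts, and all 10 were found and passed the filter on low counts. The table holds 6 RNA-seq libraries of A549, a human lung adenocarcinoma line in long use. The 3 control libraries came from cells transfected with a negative-control siRNA, and the other 3 came from cells transfected with an siRNA against HNRNPD. No other treatment, time after transfection or siRNA sequence is given in the labels. Replicates carry the numbers 1 to 3 in both groups, and nothing states that they were separate cultures. The p-values therefore set the difference between the groups against the spread of these libraries only, and that spread may be technical.

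As background, ligand binding brings many of these receptors together in pairs, which then phosphorylate each other. Phosphorylated receptors recruit adaptor proteins that lead to the RAS-ERK and PI3K-AKT pathways. In lung adenocarcinoma EGFR, MET and ERBB2 are known drivers, and AXL, FGFR1 and IGF1R are known for sustaining growth when EGFR is blocked. HNRNPD encodes AUF1, an RNA-binding protein that binds AU-rich stretches of mRNAs and is known for altering how fast they decay. The comparison asks how the mRNA of each receptor differs once HNRNPD is lowered.

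HNRNPD itself was at 965, 943 and 942 CPM (counts per 1000000, on TMM-scaled library totals) in the control libraries and at 177, 163 and 167 CPM in the HNRNPD siRNA libraries, a 5.62-fold fall (edgeR adjusted p = 1.38e-15). The libraries held 37151094 to 43005090 counts. The first principal component, with 77.3% of the variance, separated the groups, and the second, with 6.81%, set HNRNPD siRNA replicate 3 farthest from HNRNPD siRNA replicate 1. A list of 10 interferon-stimulated genes had median levels of 3.05 to 3.50 CPM in the control libraries and of 298 to 408 CPM after HNRNPD siRNA, highest in replicate 3, and all 10 were called higher. All 5 epithelial markers were detected. Their summed level was 4345 to 4618 CPM in the control libraries and 2740 to 2775 CPM after HNRNPD siRNA, most of it from the keratins KRT8 and KRT18, while EPCAM rose from 16.6 to 20.9 CPM. The markers of other cell types had lower sums. For 6 fibroblast genes they were 4.89 to 6.03 CPM in the control libraries and 6.61 to 8.08 CPM after HNRNPD siRNA. For 5 leukocyte genes they were 1.93 to 2.98 and 0.522 to 0.999 CPM, and for 4 endothelial genes 0.327 to 0.501 and 0.375 to 0.597 CPM. Among these markers COL1A1 was called higher (means of 5.14 and 6.67 CPM) and CD14 lower (2.07 and 0.514 CPM). DCN, LYZ and CDH5 were at 0 in all control libraries. The part of the interferon response and of the keratin decline in the receptor values was not tested. In RNA from whole cultures, fewer cells of a type and less RNA per cell cannot be told apart.

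The receptors did not move together. After HNRNPD siRNA 7 of the 10 were lower (EGFR, ERBB2, ERBB3, MET, FGFR1, FGFR2 and INSR), 2 were higher (IGF1R and AXL), and FGFR3 was not called. A gene is called at a Benjamini-Hochberg adjusted p under 0.05 in edgeR's quasi-likelihood test, adjusted over all 20465 tested genes. Of those genes 56.1% were called in all, 28.4% higher and 27.8% lower, so that 9 called receptors of 10 stand against a background in which most genes were called. The libraries of the groups did not overlap for 8 receptors, and for 62.6% of all tested genes. The median log2 fold change was -0.46 for the receptors, with a range of -1.45 to 0.44, and 0.01 for all tested genes. The call of ERBB2 was lost under 7 of 16 alternatives and is given with its values in the account of that receptor. The other receptors that were called kept their call and direction under all 16.

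**Figure D1:**
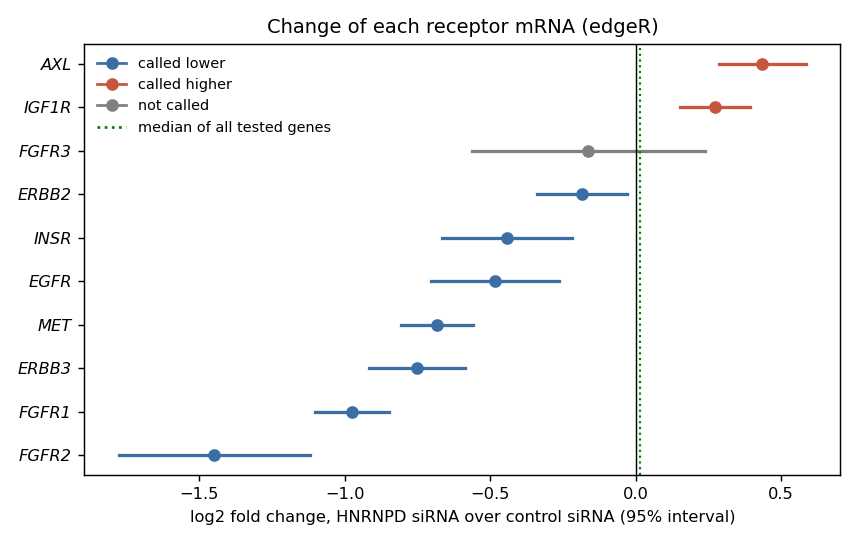
The log2 fold change of each receptor mRNA (HNRNPD siRNA over control siRNA, 3 libraries each) is plotted on the horizontal axis, with a 95% interval as a line and the receptors in rows. FGFR2 and FGFR1 lie farthest to the left at -1.45 and -0.98, IGF1R and AXL lie to the right of 0, the interval of FGFR3 spans 0, and the dotted line marks the median of all tested genes.

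Because HNRNPD is known for binding AU-rich sequences, the 3' untranslated region (UTR) of each receptor was searched for the pentamer ATTTA and for the longer motif TTATTTATT in GENCODE 29 transcripts (GRCh38). The principal transcript with the longest 3' UTR was read on its sense strand only, and a TTATTTATT match also contains ATTTA matches. None of the 10 holds TTATTTATT, which 8.06% of 17774 coding genes hold. ATTTA occurs in 8 of the 10, against 68.7% of those genes, and is missing from ERBB2 and AXL. FGFR2, the receptor with the largest fall, has 9 copies in 1523 bases, or 5.91 per kilobase, where the median of all genes is 1.58. IGF1R, which rose, has 12 copies in 7088 bases (1.69 per kilobase) and EGFR has 9 in 6011 bases (1.497 per kilobase). INSR, which fell less, has 2 copies in 429 bases (4.66 per kilobase), and FGFR3, which was not called, has 4 in 1610 bases (2.48 per kilobase). The 429 bases read for INSR stop short of the end of that gene in the deposited table, at 7112255. All values of the search for INSR therefore describe the short 3' UTR of the transcript read, and the bases beyond it were not searched. MET has 7 (3.09 per kilobase), FGFR1 5 (2.01 per kilobase) and ERBB3 2 (1.38 per kilobase). Among genes with a 3' UTR of 0.8 to 1.25 times the same length, ATTTA was found in 99.6% for EGFR and IGF1R, 92.8% for MET, 94% for FGFR1, 86.1% for FGFR2, 87.35% for FGFR3, 84.7% for ERBB3, 48.45% for INSR, 59.6% for ERBB2 and 88.6% for AXL. The median number of ATTTA copies in those genes was 16 for IGF1R, 13 for EGFR and 5 for MET and FGFR1. It was 3 for FGFR2, FGFR3, ERBB3 and AXL, 1 for ERBB2 and 0 for INSR. TTATTTATT was found in 2.52% (INSR) to 28.28% (IGF1R) of them, so most genes of these lengths lack it too. The 30 bases around the first ATTTA of each 3' UTR are shown for 7 of the 8 receptors that hold it, so that the kind of sequence that HNRNPD could meet can be read directly. ATTTA is in capitals, the bases are those of the mRNA strand with T for U, and a match describes the letters and is no measured binding site. The sequence of FGFR1 is not shown here.
EGFR: aaactgtgaagcATTTAcagaaacgcatcc
ERBB3: cactcagggagcATTTAatggcagctagtg
MET: acttgtattgttATTTAaattactggattc
FGFR2: atatgtgtaaagATTTAtacagttgaaaac
FGFR3: atttgtaaagctATTTAtgggcccctggca
IGF1R: tagggacatgaaATTTAcaaagggccatcg
INSR: gtttggttaccaATTTAactagtcctgcag
In GRCh38 they lie at chr7:55205815-55205844 (plus strand) for EGFR, chr12:56102072-56102101 (plus) for ERBB3, chr7:116796239-116796268 (plus) for MET, chr10:121479687-121479716 (minus) for FGFR2, chr4:1808102-1808131 (plus) for FGFR3, chr15:98957960-98957989 (plus) for IGF1R and chr19:7116871-7116900 (minus) for INSR. Receptors with ATTTA are found among those that fell, the 1 not called and IGF1R, which rose.

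Levels of different receptors were compared per length, as CPM per kilobase of the exonic gene length in the deposited table. In the control libraries the order was MET at 39.4 ± 0.943 (SD, n = 3), EGFR at 22.8 ± 1.88, AXL at 16.9 ± 0.986, IGF1R at 11.8 ± 0.387 and FGFR1 at 10.4 ± 0.265. Below them came ERBB2 at 3.82 ± 0.300, ERBB3 at 3.22 ± 0.235, FGFR2 at 1.16 ± 0.0512, INSR at 0.944 ± 0.0494 and FGFR3 at 0.891 ± 0.213 (SD, n = 3 each). Neighbours in this order were separated in all libraries except INSR and FGFR3, which overlapped. After HNRNPD siRNA the order was MET, AXL, EGFR, IGF1R, FGFR1, ERBB2, ERBB3, FGFR3, INSR and FGFR2. There MET (24.5 ± 1.19) overlapped AXL (22.9 ± 2.28), EGFR (16.3 ± 2.42) overlapped IGF1R (14.3 ± 0.513), and FGFR3 overlapped INSR. FGFR2 was the lowest receptor, at 0.425 ± 0.118 (SD, n = 3). Per kilobase of coding sequence in place of exonic length, EGFR stood above MET in both groups, and MET also lay below IGF1R and AXL after HNRNPD siRNA.

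**Figure D2:**
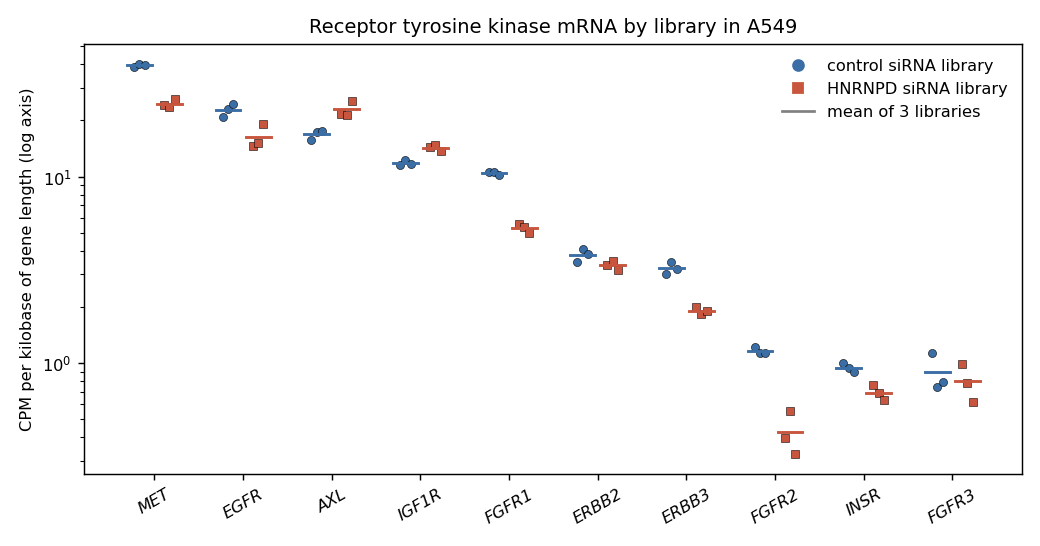
Each point is 1 library, with control siRNA libraries as circles and HNRNPD siRNA libraries as squares, and the bar is the mean of 3. The vertical axis is CPM per kilobase of gene length on a log scale, with the receptors ordered by their control mean, from MET at 39.4 down to FGFR3 at 0.891.

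The 10 receptors summed to 107, 114 and 113 CPM per kilobase in the control libraries and to 88.1, 87.5 and 95.8 after HNRNPD siRNA. Within that sum the share of MET went from 35.4% ± 0.557 to 27.1% ± 0.247 (SD, n = 3), and that of FGFR1 from 9.39% ± 0.454 to 5.89% ± 0.581. The share of AXL went from 15.2% ± 0.416 to 25.2% ± 1.198 and that of IGF1R from 10.6% ± 0.301 to 15.8% ± 1.33. For these 4 the libraries of the groups did not overlap. EGFR had shares of 19.4%, 20.2% and 21.6% in the control libraries and of 16.6%, 17.3% and 19.9% after HNRNPD siRNA, where replicate 3 lies among the controls. With coding length the share of AXL went from 10.98% to 18.8% and that of MET from 22.5% to 17.7%.

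**Figure D3:**
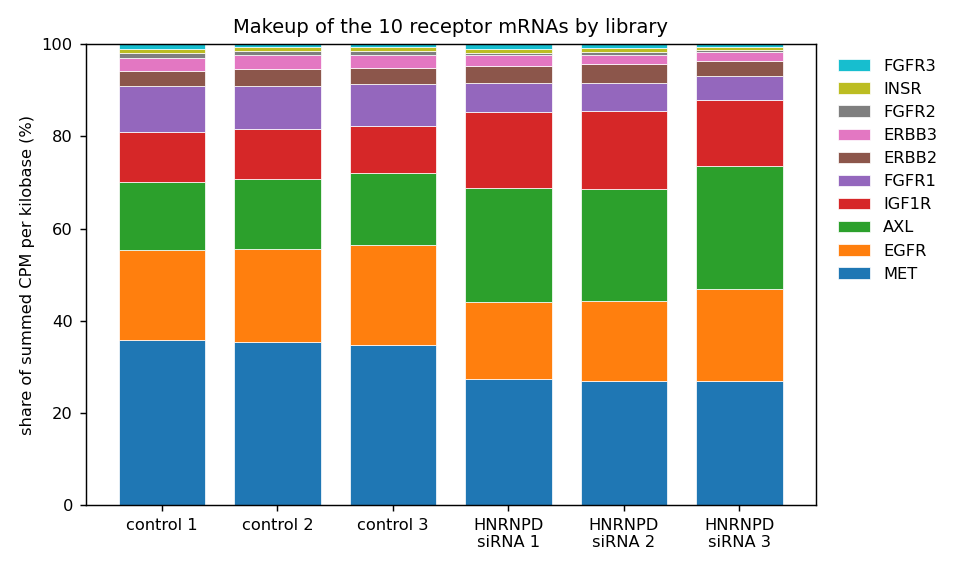
Each bar is 1 library and each segment is the share of 1 receptor in the summed CPM per kilobase of the 10 receptors, in percent. The MET segment is near 35% in the control libraries and near 27% after HNRNPD siRNA, and the AXL segment is near 15% and 25%.

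In the ERBB family, which binds EGF-like growth factors, 3 receptors were lower and by different amounts. EGFR (chromosome 7, 55019021 to 55211628, plus strand) was at 259.7, 288 and 306 CPM in the control libraries and at 183, 189 and 238 CPM after HNRNPD siRNA. The groups did not overlap, but replicate 3 lay well above the other HNRNPD siRNA libraries. Replicate 3 was the highest HNRNPD siRNA library for 3 of the 10 receptors. The fall of EGFR was 1.40-fold (log2 fold change -0.48, SE 0.10, edgeR adjusted p = 0.00173), and its log2 fold change was -0.62 without HNRNPD siRNA replicate 3.

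ERBB3 (chromosome 12, 56079857 to 56103505, plus strand), a receptor for neuregulins whose own kinase is nearly inactive and which signals through its partners, was at 26.0, 30.04 and 27.5 CPM and then at 17.3, 15.9 and 16.4 CPM. This was the largest fall of the family, at 1.68-fold (log2 fold change -0.75, SE 0.08, edgeR adjusted p = 1.84e-07). ERBB2 (chromosome 17, 39687914 to 39730426, plus strand), the partner that binds no ligand of its own, was at 36.1, 42.2 and 39.8 CPM in the control libraries and at 34.8, 36.5 and 32.7 CPM after HNRNPD siRNA. Control replicate 1 lay below HNRNPD siRNA replicate 2, so the groups overlapped. Its log2 fold change was -0.18 (SE 0.07, edgeR adjusted p = 0.0388). The call was lost without control replicate 2 (adjusted p = 0.17, log2 fold change -0.14) or 3 (0.0858), without HNRNPD siRNA replicate 1 (0.0538) or 3 (0.0679), with library totals only (0.0825), with upper quartile scaling (0.0518) and with at least 1 CPM required in 3 libraries (0.069). MIEN1 and PGAP3, on the opposite strand, overlap a fraction of 0.074 of the exonic bases of ERBB2, the highest of the 10 receptors.

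ERBB3 was 0.843 of ERBB2 per kilobase in the control libraries and 0.569 of it after HNRNPD siRNA. The difference in the log2 ratio was -0.57, and the libraries of the groups did not overlap. In an exact two-sided permutation test p was 0.1, the smallest that 3 against 3 libraries allow, or 0.14 after Benjamini-Hochberg adjustment over the 7 receptor ratios compared. The ratio of ERBB2 to EGFR was 0.168 and 0.208, and its groups overlapped (exact permutation p = 0.3, adjusted 0.3).

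MET (chromosome 7, 116672390 to 116798386, plus strand), the receptor for hepatocyte growth factor, was the most abundant receptor on the exonic length scale. It was at 271, 284 and 277 CPM in the control libraries and at 170.0, 166 and 182 CPM after HNRNPD siRNA. The groups were far apart relative to their spread, with SDs of 6.64 and 8.405 CPM (n = 3). The fall was 1.61-fold (log2 fold change -0.68, SE 0.06, edgeR adjusted p = 1.36e-08). The ratio of MET to EGFR per kilobase was 1.73 and 1.52 in the control and HNRNPD siRNA libraries, with overlap between the groups (exact permutation p = 0.2, adjusted 0.23).

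AXL (chromosome 19, 41219203 to 41261766, plus strand), the receptor for GAS6 in the TAM family, moved the other way. It was at 81.4, 89.2 and 90.9 CPM in the control libraries and at 112, 110.2 and 131 CPM after HNRNPD siRNA, with no overlap and its highest level in replicate 3. The rise was 1.35-fold (log2 fold change 0.44, SE 0.07, edgeR adjusted p = 4.62e-05), and the log2 fold change was 0.34 without HNRNPD siRNA replicate 3. The 3' UTR of AXL, in 1862 bases, holds no ATTTA. AXL was 0.744 of EGFR per kilobase in the control libraries and 1.41 times EGFR after HNRNPD siRNA, a difference of 0.92 in the log2 ratio and the largest of the 7 compared (exact permutation p = 0.1, adjusted 0.14). The other TAM receptors, MERTK and TYRO3, had log2 fold changes of -0.28 (95% interval -0.56 to -0.00047) and -0.15 (-0.40 to 0.10) and were not called (edgeR adjusted p = 0.0822 and 0.30). MERTK was called lower under 4 alternatives, with an adjusted p of 0.0198 without HNRNPD siRNA replicate 3 and 0.0355 without control replicate 1.

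Of the receptors for fibroblast growth factors, FGFR2 and FGFR1 had the largest falls of the 10 receptors, and FGFR3 was not called. FGFR1 (chromosome 8, 38411138 to 38468834, minus strand) was at 134, 135 and 129 CPM in the control libraries and at 70.6, 68.2 and 63.6 CPM after HNRNPD siRNA. No library of either group came near the other, and the fall was 1.97-fold (log2 fold change -0.98, SE 0.06, edgeR adjusted p = 1.71e-10), with the smallest p of the 10 receptors. FGFR2 (chromosome 10, 121478334 to 121598458, minus strand) was at 9.16, 8.50 and 8.49 CPM and then at 2.97, 4.15 and 2.42 CPM. It fell 2.73-fold (log2 fold change -1.45, SE 0.16, edgeR adjusted p = 3.94e-07), and its HNRNPD siRNA libraries were spread more widely than its controls.

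FGFR3 (chromosome 4, 1793307 to 1808872, plus strand) was at 5.49, 3.62 and 3.81 CPM in the control libraries and at 4.78, 3.79 and 2.997 CPM after HNRNPD siRNA, and the groups overlapped. Its log2 fold change was -0.16 with a 95% interval of -0.56 to 0.24 (edgeR adjusted p = 0.48), and 0.042 without control replicate 1, its highest library. A change of the size seen for FGFR1 lies outside that interval. FGFR1 was 11.9 times FGFR3 per kilobase in the control libraries and 6.77 times after HNRNPD siRNA, and 8.98 and 12.8 times FGFR2. Both differences, at -0.82 and 0.51 in the log2 ratio, had groups that did not overlap (exact permutation p = 0.1, adjusted 0.14 each). FGFR4, named here after its values were seen because it completes the family, was at 47.9 ± 0.736 CPM in the control libraries and 32.7 ± 2.65 CPM after HNRNPD siRNA (SD, n = 3), a 1.46-fold fall (SE 0.07 on the log2 scale, edgeR adjusted p = 2.17e-06). Per kilobase it was at 9.92, close below FGFR1 in the control libraries, and at 6.77 against 5.31 for FGFR1 after HNRNPD siRNA.

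The paired receptors for insulin and insulin-like growth factors went in opposite directions. IGF1R (chromosome 15, 98648971 to 98964530, plus strand) was at 156, 166 and 157 CPM in the control libraries and at 195, 198 and 185 CPM after HNRNPD siRNA, with no overlap. It rose 1.21-fold (log2 fold change 0.27, SE 0.06, edgeR adjusted p = 0.000527). INSR (chromosome 19, 7112255 to 7294034, minus strand), the insulin receptor, was at 10.4, 9.83 and 9.37 CPM and then at 7.97, 7.18 and 6.64 CPM. It fell 1.36-fold (log2 fold change -0.44, SE 0.11, edgeR adjusted p = 0.00169). INSR was 0.0799 of IGF1R per kilobase in the control libraries and 0.0486 of it after HNRNPD siRNA, a difference of -0.72 in the log2 ratio (exact permutation p = 0.1, adjusted 0.14).

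The ligands of these receptors were more often higher than lower. Of 27 listed ligand genes 18 could be tested, of which 11 were higher and 2 lower, where 28.4% of all tested genes were higher and 27.8% lower. The number lower was 5 without HNRNPD siRNA replicate 3, 1 without replicate 1 of that group or control replicate 3, and 0 with at least 1 CPM required in 3 libraries. Their median log2 fold change was 0.58, against 0.01 for all tested genes. The 9 that failed the filter were EPGN, NRG3, FGF1, FGF5, FGF7, FGF9, FGF10, FGF19 and INS. Low genes that passed may have done so through the group where they were high, so the count describes the tested genes only.

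Among ligands of EGFR, amphiregulin (AREG) was at 35.8, 39.7 and 42.1 CPM in the control libraries and at 73.5, 67.3 and 92.9 CPM after HNRNPD siRNA, a 1.99-fold rise (edgeR adjusted p = 4.39e-05). Epiregulin (EREG) rose 1.55-fold, from 29.4 ± 3.03 to 45.5 ± 6.36 CPM (SD, n = 3), and betacellulin (BTC) rose 5.55-fold from a low level, 0.840 ± 0.203 to 4.67 ± 1.95 CPM. The libraries of the groups did not overlap for any of these 3. EGF fell from 0.966 to 0.463 CPM (log2 fold change -1.04, edgeR adjusted p = 0.0166), and 2 libraries each carried that call, with an adjusted p of 0.0526 when control replicate 3 was left out and of 0.0715 when HNRNPD siRNA replicate 1 was. TGFA and HBEGF had log2 fold changes of -0.46 and -0.32 and were not called, but both were called lower without HNRNPD siRNA replicate 3 (adjusted p = 0.0232 and 0.00515).

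The neuregulins bind ERBB3 or its relative ERBB4, whose own mRNA was too low to test at 0.158 and 0.194 CPM. NRG2 and NRG4 rose, with log2 fold changes of 0.64 and 0.52. FBXO22 on the opposite strand overlaps 0.381 of the exonic bases of NRG4, whose counts are therefore uncertain. NRG1, the most abundant neuregulin at 49.5 CPM in the control libraries, had -0.16 and was not called (edgeR adjusted p = 0.083). It was called lower without HNRNPD siRNA replicate 3, at an adjusted p of 0.00112 and a log2 fold change of -0.25, and also with no filter on low counts (0.0401) or with the replicate number as a block (0.0442).

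HGF, the ligand of MET, was at 1.22, 1.17 and 0.620 CPM in the control libraries and at 4.89, 4.82 and 3.57 CPM after HNRNPD siRNA, a 4.398-fold rise (edgeR adjusted p = 2.39e-07) while MET fell. GAS6, the ligand of AXL, rose 2.66-fold, from 6.13 ± 0.796 to 16.3 ± 1.36 CPM (SD, n = 3, edgeR adjusted p = 3.39e-09), so ligand and receptor were both higher. The antisense gene GAS6-AS1 overlaps 0.07 of the exonic bases of GAS6. PROS1, which binds the TAM receptors MERTK and TYRO3, was not called at a log2 fold change of 0.09. It was called higher without HNRNPD siRNA replicate 3 (adjusted p = 0.0162) and lay at -0.01 without replicate 1.

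Of the fibroblast growth factors, FGF2 rose 1.38-fold from 16.9 to 23.3 CPM and FGF22 fell 3.68-fold from 1.00 to 0.27 CPM. FGF18, at 0.142 and 0.408 CPM, was listed at 0 in control replicate 1 and was called higher (edgeR adjusted p = 0.0493). Of the 14 alternatives that gave it a value, 8 lost that call, among them the removal of control replicate 1 or 2 or of any single HNRNPD siRNA library, at up to 0.17. FGF11, which is known to stay inside the cell, had a log2 fold change of 0.22 that was not called and was -0.02 without control replicate 1, and 0.797 of its exonic bases lie in other genes too. IGF2 was at 1.36, 1.59 and 1.72 CPM and then at 8.03, 5.77 and 16.8 CPM, a 6.55-fold rise (edgeR adjusted p = 0.0112) whose call was lost without control replicate 1 (0.0511). Other genes overlap 0.234 of the exonic bases of IGF2 and, on the opposite strand, 0.119 of those of FGF2. IGF1 was called higher at 0.0943 and 0.497 CPM, but 0.828 of its exonic bases lie in the antisense gene HELLPAR, so its counts cannot be assigned to it with certainty.

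**Figure D4:**
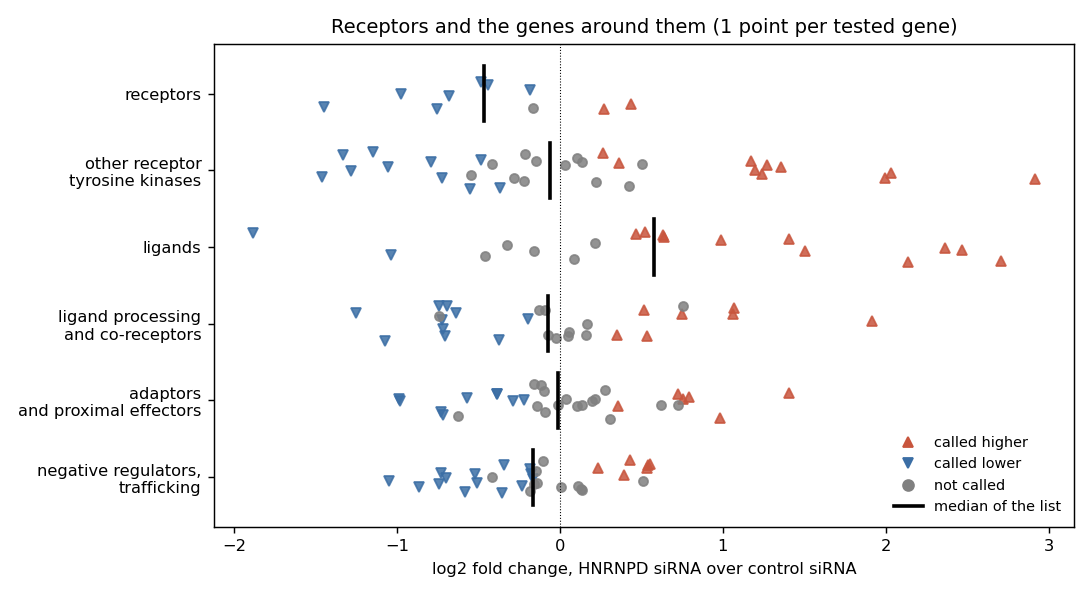
Each point is 1 tested gene, placed by its log2 fold change (HNRNPD siRNA over control siRNA) on the horizontal axis and by its list in rows, with upward triangles for genes called higher, downward triangles for genes called lower and circles for the rest. The black bar is the median of the list, at -0.46 for the 10 receptors and 0.58 for the 18 tested ligands. Points are shifted vertically only for legibility.

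Proteins that process ligands or bind them at the cell surface went both ways, with 7 of 27 tested genes higher and 10 lower (median log2 fold change -0.07). These are 63% of the list, near the 56.1% called among all tested genes. The genes named for these lists are those with the smallest p in each direction. IGFBP3, which carries IGF1 and IGF2 outside the cell, was at 163, 162 and 166 CPM in the control libraries and at 645, 617 and 591 CPM after HNRNPD siRNA, a 3.77-fold rise (edgeR adjusted p = 2.15e-14). IGFBP4 rose 2.10-fold, and IGF2R, which takes up IGF2 for degradation, 1.68-fold. The syndecan SDC3, a heparan sulfate co-receptor, fell 2.38-fold. ADAM17, the protease that releases most EGFR ligands from the membrane, fell 1.63-fold from 333 to 205 CPM, and IAH1 on the opposite strand overlaps 0.241 of its exonic bases. SPINT2, an inhibitor of the proteases that activate HGF, fell 1.65-fold.

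Of the adaptors and proximal effectors that bind activated receptors, 6 were higher and 9 lower of 31 tested, with a median of -0.01. The share called, 48.4%, lies below the 56.1% of all tested genes. The insulin receptor substrate IRS2 rose 1.97-fold, the adaptor SHC1 1.69-fold and the phosphatase PTPN11, which is needed for full RAS activation, 1.66-fold. The kinase SRC fell 1.98-fold, the PI3K catalytic subunit PIK3CB 1.66-fold and the regulatory subunit PIK3R2 1.64-fold. Neighbouring genes overlap 0.152 of the exonic bases of SHC1, and a gene on the same strand overlaps 0.872 of those of PIK3R2, whose counts are therefore uncertain.

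Negative regulators and trafficking factors of receptors were lower in 14 and higher in 6 of 31 tested genes, with a median of -0.16. The share called was 64.5%, near the 56.1% of all tested genes. EPS15, an endocytic adaptor for EGFR, fell 2.07-fold, and the receptor phosphatases PTPRF and PTPRG fell 1.67-fold and 1.66-fold. Of those that rose, the smallest p-values belonged to the receptor phosphatase PTPRK (1.46-fold), LRIG3 (1.45-fold) and the ubiquitin ligase CBLB (1.35-fold), which marks active receptors for degradation.

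Of 48 other receptor tyrosine kinases 32 were expressed enough to test, of which 10 were higher and 10 lower, and the median log2 fold change was -0.06. The share called, 62.5%, is near the 56.1% of all tested genes. ROR2 and LTK, called higher, were at 0.228 and 0.110 CPM in the control libraries and at 0.542 and 0.447 CPM after HNRNPD siRNA. As with the ligands, such low genes may have passed the filter through the group where they were high, as may EPHB3, called lower. The counts therefore describe the tested genes only. With at least 1 CPM required in 3 libraries, 8 were higher and 9 lower. That filter can also be passed through the high group alone. RET, for example, was at 0.329, 0.630 and 0.691 CPM in the control libraries. These numbers too therefore describe tested genes only. Smallest in p among those that fell were EPHB2 (2.75-fold, from 34.2 to 12.4 CPM), of the Wnt-binding receptor RYK (2.43-fold, from 33.0 to 13.6 CPM) and of PTK7 (2.21-fold, from 21.4 to 9.68 CPM), a pseudokinase of the Wnt pathway. Among those that rose, RET rose 7.56-fold from 0.550 to 4.17 CPM, EPHA5 4.09-fold from 1.05 to 4.31 CPM and EPHA4 2.29-fold from 1.75 to 4.02 CPM, all from low levels. The adjusted p-values (edgeR) were 1.26e-11 for EPHB2, 1.49e-10 for RYK, 1.45e-09 for PTK7, 4.11e-07 for RET, 1.71e-07 for EPHA5 and 2.24e-05 for EPHA4.

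The genes with the profile nearest to a receptor were sought among 10787 candidates averaging 5 CPM or more, by Euclidean distance over the 6 libraries of log2(CPM + 0.01) centred on the control mean. Nearest to FGFR1 were PSAT1 (distance 0.0587), PRKCA (0.0906) and IPMK (0.0971), which fell with log2 fold changes of -1.01, -1.01 and -0.96. Nearest to AXL were CFLAR (0.0654), TOP1 (0.0717) and CACTIN (0.0772), which rose with 0.42, 0.45 and 0.45. These distances describe 6 libraries that differ mainly by group.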

How the data were processed

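The authors deposited 1 table of whole-number read counts per gene, with exonic gene lengths in bases, for 6 libraries. The submitters' processing notes list Bowtie 0.12.2 and, without a role for either, the genome builds GRCh38 and mm8. No source used here names the counting program, the annotation version or the strand setting. Per the labels' protocols, libraries were made with a TruSeq RNA kit. Coordinates are those of the deposited table, and gene bounds equalled those of GENCODE 29 (GRCh38) for 6 of the 10 receptors. Among counts of 1 to 20, 66.2% to 69.5% per library were even; counts divided by 2 were therefore run as an alternative. Receptors share a fraction of 0 to 0.074 of their exonic bases with other genes.

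The counts were fitted with edgeR 4.0.16 in R 4.3.3 (robust quasi-likelihood, TMM, filterByExpr, group as the only term) and adjusted by Benjamini-Hochberg over 20465 genes. The fits were tested on simulated data. DESeq2 missed the recovery criterion first set there, which was then narrowed to 2-fold changes and met by edgeR, limma-voom and DESeq2. The changes that edgeR missed there were mostly in genes with low counts. Few genes were changed in the simulated data, whereas 56.1% of tested genes were called in the real data. Of the receptors only FGFR2 changed by more than 2-fold, so the narrowed criterion does not cover the other receptor calls. Standard errors were the log2 fold change divided by the square root of F. Named genes are HNRNPD, the receptors, up to 3 genes per direction and list with the smallest p and at least 1 CPM, and the 3 genes nearest to FGFR1 and to AXL. The remaining ligands, FGFR4, MERTK, TYRO3 and the Eph receptors are named outside that rule, after their values were seen, and the search of 3' UTRs was also added then. The members and lists were chosen with earlier results of these data known. Alternatives included DESeq2 1.42.0 and limma-voom (limma 3.58.1). Replicates of a group differed by more than sampling noise (chi-square per degree of freedom 6.63 to 27.7).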

Additional observations from a re-analysis of the deposited data

How the results depend on the processing

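Of the receptors, FGFR3 alone changed sign (-0.35 to 0.042 when 1 library was left out, with 0.042 without control replicate 1), and ERBB2 alone lost its call, under the 7 alternatives given with its values. The other 8 receptors kept direction and call in all 128 refits, with log2 fold changes within 1.28 times the reported ones. No scaling moved the median of all genes by 0.1 or more on the log2 scale. The receptors called numbered 2 higher in every refit that left out 1 library and 6 to 7 lower. The ligands called lower numbered 0 with at least 1 CPM required in 3 libraries, where fewer genes were tested, and 1 to 5 when 1 library was left out, with 5 without HNRNPD siRNA replicate 3. EGF and FGF22, the ligands called lower, did not reach 1 CPM in 3 libraries and so were not tested under that filter. Without HNRNPD siRNA replicate 3, TGFA, HBEGF and NRG1 were called lower as well. Why that library differed for them was not tested. Of 62 other named genes, 11 changed call or direction, each given with its values. When 1 library was left out, FGF11 ranged from -0.022 to 0.35 and PROS1 from -0.014 to 0.21. Low counts limit FGF18, EGF, IGF1 and EPHB3, all under 1 CPM in both groups.

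Coding length in place of exonic length moved the shares to 22.5% for MET, 26.5% for EGFR, 10.98% for AXL and 13.2% for IGF1R in the control libraries, and to 17.7%, 23.9%, 18.8% and 20.1% after HNRNPD siRNA. Without any length, 3 receptors kept their rank in the control libraries and 4 after HNRNPD siRNA.

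Libraries with the same replicate number did not deviate together (correlations of 0.0257, 0.0218 and 0.0139), although 3 of 3 control libraries and 2 of 3 HNRNPD siRNA libraries correlated best with their own number, so the numbers were not taken as pairs. With the replicate number as a block, 5792 genes were higher and 5737 lower, with 2 receptors higher and 7 lower. The block ended no receptor's call, and among the other named genes it added calls for MERTK, EPHA2 and NRG1 (adjusted p = 0.0418, 0.0468 and 0.0442). With the block, 11 other receptor tyrosine kinases were higher and 13 lower, 3 ligands were lower, 8 ligand-processing genes were higher and 11 lower, 7 adaptors were higher and 16 negative regulators were lower.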

Other observations

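The Eph receptors, which bind membrane-bound ephrins on neighbouring cells, form the largest family among the other receptor tyrosine kinases, and their members went both ways. The grouping into EPHA and EPHB genes was made after the values were seen, and no difference between them was tested. Of 6 tested EPHA genes, 4 were higher and 0 lower, and of 4 tested EPHB genes, 1 was higher and 3 lower (edgeR), where 28.4% of all tested genes were higher and 27.8% lower. The most abundant gene of each group, EPHA2 and EPHB4, had the opposite sign to most of its group. EPHA5 and EPHA4 are given above, and EPHA7 went from 1.05 ± 0.0584 to 2.69 ± 0.695 CPM (SD, n = 3, log2 fold change 1.36) and EPHA10 from 0.689 to 1.56 CPM (1.17). EPHA1, at 1.08 and 1.18 CPM, was not called.

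EPHA2, the most abundant EPHA gene at 52.7 ± 3.17 CPM in the control libraries, was at 45.2 ± 10.4 CPM after HNRNPD siRNA and not called (log2 fold change -0.22, edgeR adjusted p = 0.28). Its levels per kilobase were 9.35, 9.53 and 13.8 in HNRNPD siRNA replicates 1 to 3, and without replicate 3 it was called lower at -0.43 (adjusted p = 8.09e-07). It was also called with no filter on low counts (0.0051) and with the replicate number as a block (0.0468). EPHB6 fell from 3.20 to 1.53 CPM (log2 fold change -1.06) and EPHB3 from 0.558 to 0.220 CPM (-1.33), although the call of EPHB3 was lost without control replicate 3 (0.0798) or HNRNPD siRNA replicate 3 (0.0542). EPHB4, the most abundant EPHB gene, rose from 68.1 ± 0.936 to 81.7 ± 2.55 CPM (log2 fold change 0.26, edgeR adjusted p = 0.000819), with no overlap between the groups.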
